A study of Mus musculus with 2 samples.

Results

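The interferon regulatory factors (IRFs) are a family of transcription factors, and the genes described here are 8 of them, Irf1, Irf2, Irf3, Irf4, Irf5, Irf7, Irf8 and Irf9, together with Irf2bp2 and Irf2bpl, which encode proteins related through their binding to IRF2. Members were taken by name: a nascent transcript belonged to the set when the gene name given to it in the deposited annotation was one of these 10. The 10 genes were among 11054 genes named in either library, and their names were carried by 112 of 43122 called transcripts in the control library and by 158 of 51365 after IL-4.

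The transcripts came from Global Run-On sequencing (GRO-seq) of wild-type mouse bone marrow-derived macrophages (BMDMs), an assay in which nuclei are isolated and engaged RNA polymerases extend their RNA in the presence of a brominated nucleotide, so that RNA in the process of being made is captured. Marrow of mice aged 8-12 weeks, on the C57BL/6 background per the methods of the study, was differentiated for 6 days in the supernatant of L929 fibroblasts, a cell line used as a source of M-CSF, which macrophages need for growth. Cells of the control group received no cytokine beyond M-CSF, and cells of the other group were treated with IL-4 at 20 ng/ml for 1 hr. Run-on reactions were made in duplicate and pooled before capture, which left 1 library per group, so no difference below has a replicate check and none could be tested against the spread between replicates.

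IRFs share a DNA-binding domain that recognizes GAAA-containing elements, found in interferon-stimulated response elements (ISREs) and, next to a site for an ETS or AP-1 family factor, in composite elements. IRF3, IRF5 and IRF7 act downstream of pattern recognition receptors in the induction of cytokines and type I interferons, IRF9 is part of the complex that binds DNA after type I interferon signaling, and IRF1 and IRF2 bind the same elements with mostly activating and repressing effect. IRF8 is required for the development of monocytes and macrophages, and IRF4 is known as a factor of alternative macrophage polarization. IRF2BP2 was described as a corepressor that binds IRF2, and IRF2BPL is its relative.

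Each called transcript, hereafter a segment, has a start, an end, a strand and a score that was deposited to 1 decimal, so that a score of 0.3 can be anything within 0.05 of it. The IL-4 library held longer and lower segments. The median length was 227 bp in the control and 312 bp after IL-4, the median score was 0.3 and 0.2, and the segments covered 10.8 Mb and 18.5 Mb in all, a ratio of 1.71. Sequencing depth is unknown, because the files hold no read counts. All 10 macrophage markers looked up (such as Csf1r, Adgre1 and Mertk) had a segment on their own strand in both libraries, and all markers of T cells, B cells, dendritic cells, erythroid cells and fibroblasts had none. Of 6 genes of neutrophils and their precursors, 3 had a segment in each library, with a summed level of 163 in the control and 346 after IL-4. The part of these cells in the values below was not tested.

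For each gene, the segments overlapping its GENCODE span on its own strand were used. The level is the sum of score times overlapped length per kb of gene, so that a level of 100 is a mean score of 0.1 over every base of the gene. The ratio of the levels is given as log2 of IL-4 over control, centred on the median of the 7210 genes with a level in both libraries (a shift of 0.12), and the range beside it is the one that rounding of the scores allows. That range is no confidence interval.

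Nascent RNA covered more of every one of the 10 genes after IL-4 than in the control. Irf4 had no segment on either strand in the control and 5 after IL-4, and Irf3, Irf7 and Irf2 were at least 2-fold higher in level. No member was 2-fold lower. Of the 9 members with a level in both libraries, 8 had a centred log2 ratio above 0, the ratios ran from -0.01 for Irf2bpl to 2.59 for Irf3, and their median was 0.59. Among all 7210 genes 16.6% were at least 2-fold higher and 16.9% at least 2-fold lower, with quartiles of -0.69 and 0.66 around the median of 0. Over the whole rounding range 1 member, Irf3, stayed 2-fold higher, beside 7.53% of all genes, and 7.98% of all genes stayed 2-fold lower.

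The wider cover was shared by most of the transcriptome. Of 8943 genes with a segment in either library 68.8% had more covered bases after IL-4, and the median gene with segments in both had 1.41 times as many. Of the 9 members with segments in both libraries 8 lay above that median ratio. When each gene's covered bases were divided by the total of its library, 3 of the 10 members, Irf2, Irf3 and Irf4, were higher after IL-4, beside 42.5% of the 8943 genes.

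**Figure D1:**
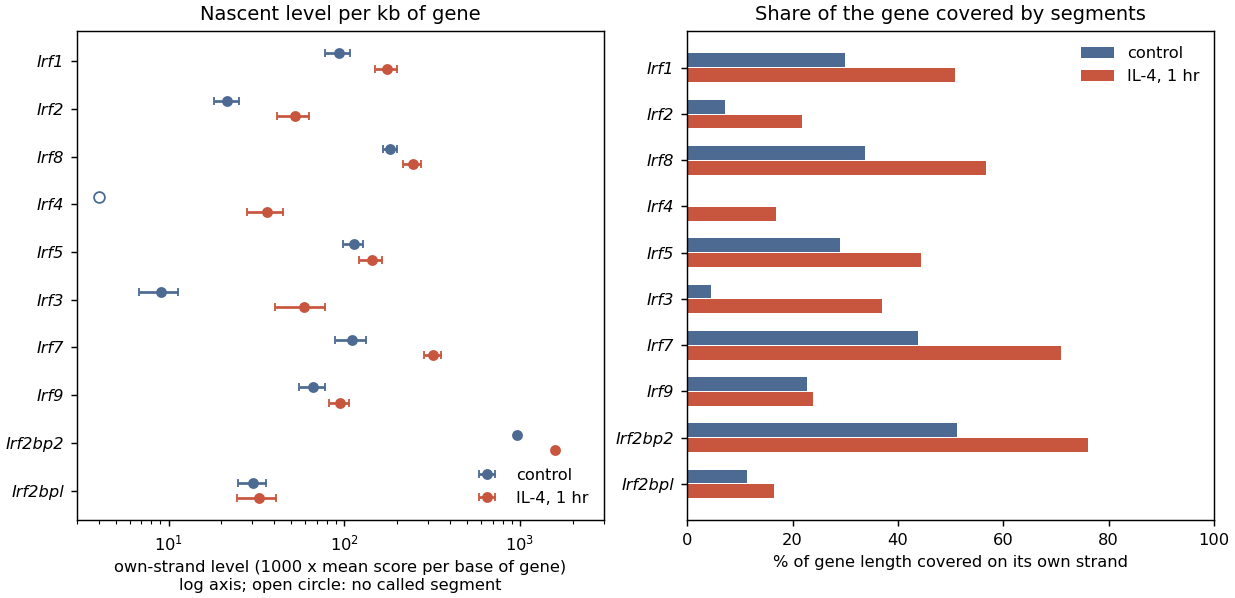
Own-strand nascent level (left, log axis, 1000 times the mean score per base of gene) and percent of the gene covered by segments (right) for the 10 genes in control (blue) and after IL-4 for 1 hr (red), 1 library each. Horizontal bars on the left show the range allowed by rounding of the scores, and the open circle marks Irf4 in the control, where no segment was called. Every gene has the longer red bar on the right, and Irf2bp2 lies far above the others on the left.

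**Figure D2:**
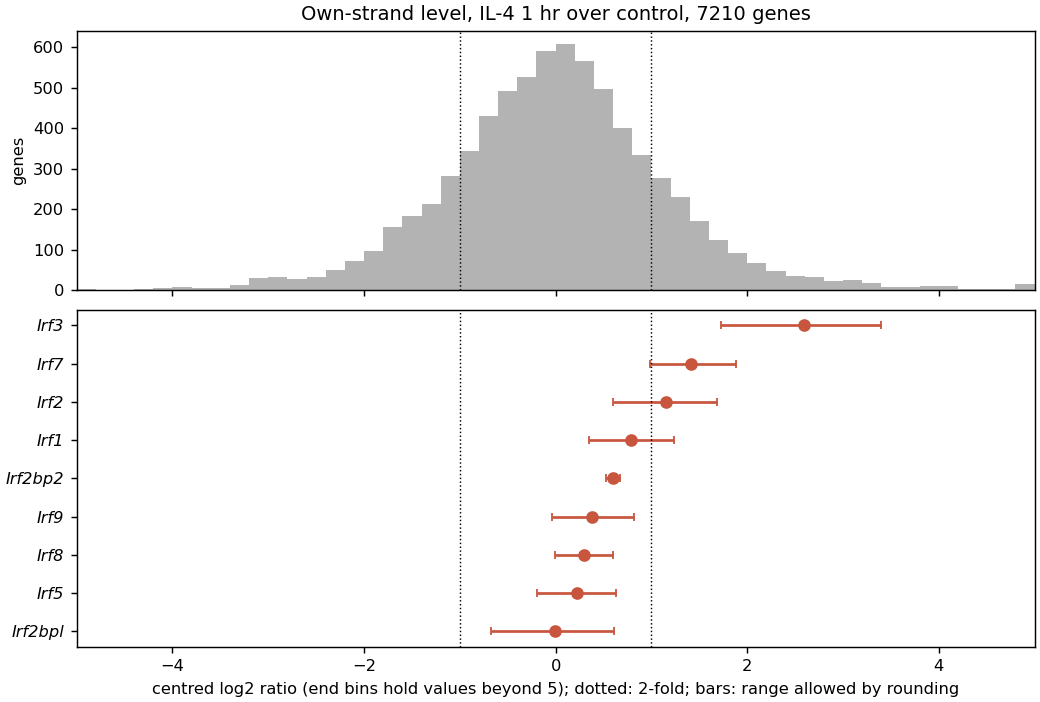
Centred log2 ratios of own-strand level, IL-4 over control. The upper panel counts the 7210 genes with a level in both libraries, and the lower panel gives the 9 members with a level in both (points) with the range allowed by rounding (bars). Dotted lines mark 2-fold, and Irf3, Irf7 and Irf2 lie to the right of it.

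Irf4 (ENSMUSG00000021356.10, chromosome 13, 30749226 to 30766976, plus strand, mm10) was the member without a control signal in its gene. After IL-4 its first segment began 30 bp from the annotated start, was 1167 bp long and had a score of 0.4. The 4 further segments, each with a score of 0.1, lay in exon 2, intron 5, intron 7 and the 3' UTR, the last between 15813 and 16235 bp from the start. Segments were thus called from the start of the gene to its last exon, and they covered 16.8% of it at a level of 36.6 (rounding range 28.1 to 44.98). Genes with own-strand segments after IL-4 and none in the control made up 11.8% of the 8943 genes. No fold is given for Irf4, since an uncalled gene is not shown to be silent at an unknown depth.

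Irf8 (ENSMUSG00000041515.10, chromosome 8, 120736358 to 120756694, plus strand), the relative of Irf4 that macrophages use throughout their development, was already transcribed in the control. It had 17 segments over 33.8% of the gene in the control and 19 segments over 56.7% after IL-4. The level was 184 (167 to 200.5) in the control and 245 (217 to 273) with IL-4, which gave a centred log2 ratio of 0.30 (-0.01 to 0.59). The segment at its start kept its score, 1.7 and 1.8, while a segment in intron 6, about 16 kb downstream, had 1.7 in the control and 0.9 after IL-4. The ranges of the 2 levels did not overlap, but the centred ratio reached below 0. The gene lies within the annotated read-through gene Gm20388, so segments cannot be told apart between the 2.

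Irf7 (ENSMUSG00000025498.15, chromosome 7, 141262706 to 141266481, minus strand), the IRF that amplifies type I interferon production, was 2-fold apart in score at its start. The segment at its start began 64 bp from the annotated start with a score of 0.5 in the control, and at 63 bp with a score of 1.0 after IL-4. Its 5 control segments covered 43.8% of the gene and its 4 IL-4 segments 71.0%. The level was 111 (88.8 to 133) in the control and 320.5 (285 to 356) after IL-4, and the centred log2 ratio was 1.41 (0.98 to 1.88). Of its 5 control segments 4 overlapped an IL-4 segment, and the score was higher in 3 of these and equal in 1. After IL-4 a further segment lay past its end, 4514 to 5386 bp from the start, within the neighbouring gene Phrf1 and on the opposite strand to it.

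Irf3 (ENSMUSG00000003184.15, chromosome 7, 44997648 to 45002848, plus strand), the factor activated by the kinase TBK1 in the response to viral nucleic acids, had the largest ratio of the set and, Irf4 aside, the lowest control level. In the control a single segment of 235 bp with a score of 0.2 lay at its start and covered 4.52% of the gene. After IL-4 the segment at the start was 556 bp long, also with a score of 0.2, and 3 segments with scores of 0.1 to 0.2 lay in the body, so that 37.1% was covered. The level was 9.04 (6.78 to 11.3) in the control and 59.05 (40.5 to 77.6) after IL-4, and the centred log2 ratio was 2.59 (1.72 to 3.40). The gain was in covered length, since the highest score in the gene was 0.2 in both libraries.

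Irf5 (ENSMUSG00000029771.12, chromosome 6, 29526625 to 29541871, plus strand), which drives inflammatory cytokine genes downstream of Toll-like receptors, differed little. It had 12 segments over 29.0% of the gene in the control and 10 segments over 44.3% after IL-4. The level was 113 (98.6 to 128) and 143 (121 to 165), ranges that overlap, and the centred log2 ratio was 0.22 (-0.20 to 0.63). The segment at its start scored 0.7 and 0.9, whereas a short segment 7033 bp into the gene scored 0.9 in the control and 0.3 after IL-4.

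**Figure D3:**
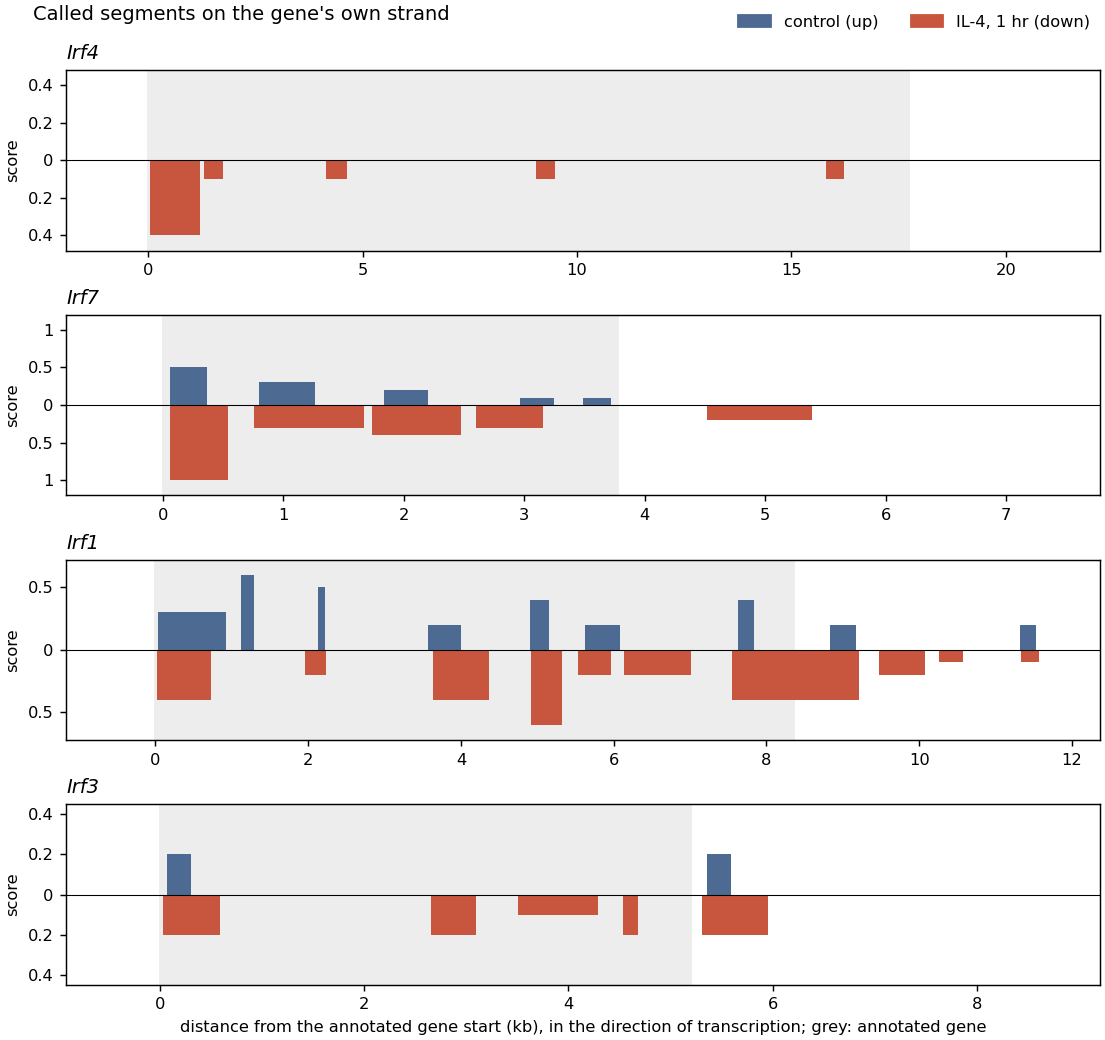
Segments on the own strand of Irf4, Irf7, Irf1 and Irf3. The x axis is the distance from the annotated start in kb, the y axis the score, control upward (blue) and IL-4 downward (red), and grey marks the annotated gene. Irf4 has no control segment, Irf7 has a start segment of 0.5 in the control and 1.0 after IL-4, and the IL-4 segments of Irf3 lie along the body, where the control has none.

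Irf1 (ENSMUSG00000018899.16, chromosome 11, 53770014 to 53778374, plus strand), a gene induced by interferon-gamma, had 7 segments in each library. They covered 29.9% of the gene in the control and 50.8% after IL-4. The level was 93.2 (78.2 to 108) in the control and 175 (150 to 201) after IL-4, ranges that do not overlap, and the centred log2 ratio was 0.79 (0.35 to 1.24). The segment at the start scored 0.3 and 0.4, and the last IL-4 segment of the gene, 1662 bp long with a score of 0.4, ran past its annotated end where the control had separate segments of 219 and 332 bp. Upstream of the start, a segment on the opposite strand ran from -386 to -174 bp in the control and from -505 to -254 bp after IL-4, with a score of 0.2 in both.

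Irf2 (ENSMUSG00000031627.9, chromosome 8, 46739732 to 46847458, plus strand), the mostly repressing counterpart of Irf1, is the longest of the 10 genes at 107727 bp. It had 33 segments over 7.09% of its length in the control and 58 over 21.8% after IL-4. The level was 21.6 (18.1 to 25.2) in the control and 52.3 (41.4 to 63.2) after IL-4, and the centred log2 ratio was 1.16 (0.60 to 1.69). Most of the difference lay in the body, where 32 and 57 segments were called, while the start segment scored 0.5 and 0.6. Without segments annotated as repeat elements the ratio was 0.98, under 2-fold.

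Irf9 (ENSMUSG00000002325.15, chromosome 14, 55603571 to 55610030, plus strand), the subunit that recognizes DNA in the complex formed after type I interferon signaling, had 4 segments in the control and 3 after IL-4, over 22.7% and 23.8% of the gene. The level was 66.7 (55.3 to 78.1) and 94.3 (82.4 to 106), and the centred log2 ratio was 0.38 (-0.04 to 0.82). Its level lay mostly in 1 segment near the start, with a score of 0.4 over 685 bp in the control and 0.5 over 1089 bp after IL-4. The gene Rnf31 runs into its start on the same strand, and reads of the 2 cannot be told apart there.

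Irf2bp2 (ENSMUSG00000051495.7, chromosome 8, 126588296 to 126593986, minus strand) had the highest level of the set in both libraries. The level was 963.5 (938 to 989) in the control and 1580 (1542 to 1618) after IL-4, and the centred log2 ratio was 0.59 (0.52 to 0.67). Most of it came from 2 segments annotated to the 3' UTR. One of them scored 9.5 over 272 bp in the control and 6.7 over 829 bp after IL-4, and the other 3.5 over 447 bp and 4.2 over 333 bp. The higher level after IL-4 therefore went with a longer segment of lower score. Control segments covered 51.1% of the gene and IL-4 segments 76.2%, and its start was covered to 47.8% and 99.8%.

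Irf2bpl (ENSMUSG00000034168.7, chromosome 12, 86880701 to 86884798, minus strand), a gene of 1 exon, did not differ beyond rounding. It had 2 segments in the control and 1 after IL-4, with a level of 30.45 (24.8 to 36.1) and 32.85 (24.6 to 41.1) and a centred log2 ratio of -0.01 (-0.67 to 0.61). Their relative Irf2bp1, which was not a member, had 1 segment in the control with a score of 0.3 and none after IL-4.

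**Figure D4:**
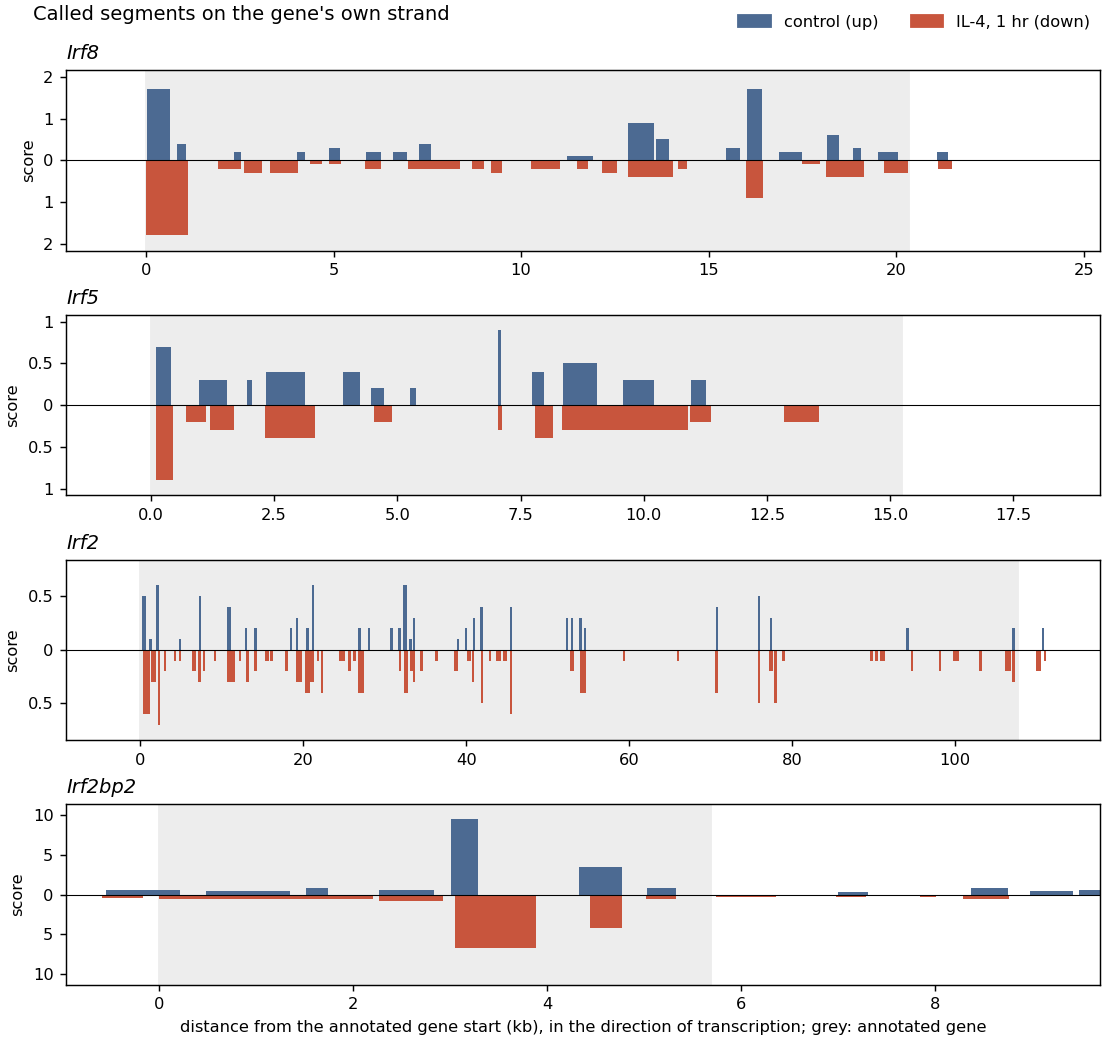
Segments on the own strand of Irf8, Irf5, Irf2 and Irf2bp2, drawn as distance from the annotated start in kb against score, control upward (blue), IL-4 downward (red) and the annotated gene in grey. The scales differ between genes. Irf8 has start segments of 1.7 and 1.8, and the tallest bars of Irf2bp2, 9.5 and 6.7, lie in its 3' UTR.

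The order of the genes by level per kb was led by Irf2bp2 in both libraries, at percentiles 99.8 and 99.9 of the genes with a segment. In the control Irf8, Irf5, Irf7, Irf1, Irf9, Irf2bpl, Irf2bp1, Irf2 and Irf3 followed, from percentile 97.9 down to 57.0. The rounding ranges of the neighbours Irf5, Irf7 and Irf1 overlapped, as did those of Irf2bpl, Irf2bp1 and Irf2, so these were not separated. After IL-4 Irf7 stood second, at percentile 98.6, ahead of Irf8 at 98.1, and was apart from it in range. Irf1 and Irf5 came next and overlapped each other. Irf9 was apart from its neighbours, and Irf3, Irf2, Irf4 and Irf2bpl closed the order, each overlapping the next.

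The first 500 bp of the genes held a higher level per kb than the rest of the gene in most members. The ratio of start to body level was 24.6 for Irf2bpl, 13.2 for Irf2, 10.6 for Irf8, 4.36 for Irf5, 3.80 for Irf7 and 3.46 for Irf1 in the control. After IL-4 it was 3.46 for Irf2, whose start level was 270 in the control and 179 after IL-4 while its body level was 20.4 and 51.7. The lower Irf2 start level went with the place of its start segment, which began at 230 bp in the control and 351 bp after IL-4. It thus covered 54% and 29.8% of the first 500 bp. Over its whole length, that segment had a score times length of 230.5 in the control and 460.8 after IL-4. Irf1 stood at 2.36, with start levels of 281 and 382 and body levels of 81.2 and 162. Irf7 stood at 3.70, its start and body being higher after IL-4 by a like factor, and Irf8, Irf5 and Irf2bpl stood at 8.61, 4.86 and 19.1. Irf4 had a start level of 376 after IL-4 against a body level of 26.7, a ratio of 14.1. Irf2bp2 was the exception in both libraries, with 0.28 in the control and 0.36 after IL-4, its highest segments lying in the 3' UTR. Irf9 stood at 1.57 in the control and 0.82 after IL-4. Its 500 bp were counted from the GENCODE start at 55603571, while its RefSeq starts lie downstream, at 55603985 and 55604579. The main Irf9 segment ran from 375 to 1059 bp in the control and from 472 to 1560 bp after IL-4. Most of that segment was therefore counted as body.

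Segments of the 2 libraries were also compared one with another. Of the 88 control segments on the members' own strand, 72 (81.8%) overlapped an IL-4 segment, beside 62.6% of all control segments. Of the 117 IL-4 segments, 50 (42.7%) had no control counterpart, 32 of them in Irf2, beside 48.1% of all IL-4 segments. Among the 72, the IL-4 score was higher in 30 (41.7%), equal in 21 and lower in 21 (29.2%). Over all 26998 matched control segments 22.8% were higher and 54.3% lower. Unlike the 72, these were not limited to the own strand of genes and include intergenic segments. Irf8 had 6 higher and 7 lower, Irf5 had 1 higher and 3 lower, and Irf2, which held 27 of the 72, had 13 higher and 6 lower.

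The gene name that the deposited annotation attaches to a segment gives another value, the highest score among all segments with that name. It had been planned as the main measure. By this measure Irf7 (0.5 in the control and 1.0 after IL-4, centred log2 ratio 1.38, range 1.17 to 1.60) was the 1 of 10 members at least 2-fold higher, also over the whole rounding range, where 8.06% of 8879 genes were 2-fold higher and 3.67% stayed so over that range. Irf3 (0.8 and 0.3, ratio -1.04, range -1.39 to -0.72) was the 1 member at least 2-fold lower, beside 8.62% of all genes, and no member stayed lower over the range, beside 3.85% of all genes. The members' median was 0.38, which was 0 before the shift of -0.38 over all genes was removed. Without that step the counts over all genes were 531 higher and 2161 lower in place of 716 and 765.

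The by-name values of Irf3 and Irf4 came from other genes. The highest segment named Irf3 lay 8904 bp from its start in the control, on the opposite strand in an exon of Scaf1, and the IL-4 one at 8837 bp in the same exon. The highest segments named Irf4, with scores of 1.7 and 1.2, lay on the opposite strand 98546 and 98537 bp from its start in an intron of Exoc2, annotated as a LINE element in the control and a simple repeat after IL-4. In the other 8 members the highest segment lay inside the gene on its own strand in both libraries. Among these 8 the by-name centred log2 ratio was 0.60 for Irf2, 0.70 for Irf9, 0.46 for Irf8, 0.38 for Irf1 and for Irf5, -0.13 for Irf2bp2 and -0.21 for Irf2bpl, besides Irf7. Irf2bp2 was thus lower by its highest score and higher by its level.

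Promoter sequences are shown for the members whose level differed most apart from Irf3 (Irf4, Irf7 and Irf2) and for Irf1, as the 250 bases upstream of the RefSeq start (GRCm38.p6, which shares its coordinates with mm10), 5' to 3' on the strand of the gene. A RefSeq promoter was found for all 10 members. Each was searched on both strands for the STAT6 element TTCNNNNGAA, the element GAS, known from the interferon-gamma response, TTCNNNGAA, and the ISRE core GAAANNGAAA, where N is any base. The elements with 3 and 4 spacer bases cannot match at the same position. Capitals mark the matches.
Irf4, chr13:30748983-30749232, plus strand: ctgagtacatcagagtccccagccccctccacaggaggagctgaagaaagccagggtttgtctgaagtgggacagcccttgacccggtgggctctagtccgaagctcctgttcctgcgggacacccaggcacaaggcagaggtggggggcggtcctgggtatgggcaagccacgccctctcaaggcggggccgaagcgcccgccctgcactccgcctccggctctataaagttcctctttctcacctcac
Irf7, chr7:141266425-141266674, minus strand: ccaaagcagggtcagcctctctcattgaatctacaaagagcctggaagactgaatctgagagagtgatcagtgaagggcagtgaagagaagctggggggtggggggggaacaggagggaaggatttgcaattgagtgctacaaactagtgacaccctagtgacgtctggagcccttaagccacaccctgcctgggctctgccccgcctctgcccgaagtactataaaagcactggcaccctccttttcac
Irf1, chr11:53769764-53770013, plus strand: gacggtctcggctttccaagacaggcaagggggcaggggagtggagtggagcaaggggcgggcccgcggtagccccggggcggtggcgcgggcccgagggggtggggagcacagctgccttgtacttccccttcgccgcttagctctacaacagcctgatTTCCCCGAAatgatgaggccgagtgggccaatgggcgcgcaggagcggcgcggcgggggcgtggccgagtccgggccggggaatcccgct
Irf2, chr8:46739495-46739744, plus strand: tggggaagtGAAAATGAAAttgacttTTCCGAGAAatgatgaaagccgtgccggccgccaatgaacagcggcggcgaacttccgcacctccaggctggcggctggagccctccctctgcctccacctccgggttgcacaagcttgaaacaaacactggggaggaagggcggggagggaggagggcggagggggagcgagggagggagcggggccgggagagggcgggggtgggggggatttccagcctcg

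None of the 3 patterns was found in these windows of Irf4, Irf7, Irf3, Irf5, Irf9, Irf2bp2 or Irf2bpl. Counted in bases from the start, Irf1 held 1 GAS match at -90 to -82, and Irf2 held a GAS match at -224 to -216 and an ISRE core at -241 to -232. Irf8 held a pair of GAS matches, TTCTCGGAA and TTCAGAGAA, at -171 to -163 and -153 to -145. No member had the STAT6 element there. Among 32851 RefSeq promoter windows, 5.85% held the STAT6 element, 7.02% GAS and 2.98% the ISRE core. A match is a run of letters and not a bound site.

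Of 37 genes for interferon receptors, pattern recognition signaling and partners of the IRFs, 30 had an own-strand level in both libraries, 5 had no segment and 2 had segments after IL-4 only. Of the 8943 genes with an own-strand segment in either library, 11.8% had them after IL-4 only. Among the 30, 8 were at least 2-fold higher and 4 at least 2-fold lower, beside 16.6% and 16.9% of all genes, and the median centred log2 ratio was 0.29. Over the whole rounding range 4 of the 30 stayed higher and 3 stayed lower, beside 7.53% and 7.98% of all genes. The 4 were Jak2, a kinase of the interferon-gamma receptor, with 3.16 (1 segment and 11), Ikzf1, a lymphoid and myeloid zinc finger factor, with 2.90 (19 segments and 73), the ETS factor Ets2 with 1.90 (1 segment and 2) and the interferon-gamma receptor chain Ifngr1 with 1.71 (2 segments and 5). Their control levels were low, at 0.88 for Jak2, 2.57 for Ets2, 10.04 for Ifngr1 and 17.1 for Ikzf1. The highest score by name was equal in both libraries for Jak2 (0.5) and Ets2 (0.4). It was 0.6 in the control and 0.7 after IL-4 for Ifngr1, and 1.4 and 2 for Ikzf1.

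The 3 lower genes were Tlr7, Tlr9 and Ticam2. The nucleic acid sensor Tlr7 had 10 segments and a level of 24.5 in the control and 3 segments and 6.37 with IL-4, for a centred log2 ratio of -2.06 (-2.77 to -1.40). Tlr9, the sensor of unmethylated DNA, had 1 segment in each library, with a level of 99.7 in the control and 6.67 after IL-4 and a ratio of -4.02. The adaptor Ticam2 stood at -1.95. Other genes of Toll-like receptor signaling on the list lay on the other side or near 0: the kinase gene Irak4 had a ratio of 1.56, the receptor gene Tlr4 1.30, Traf6 1.03, the adaptor gene Ticam1 0.83 and the adaptor gene Myd88 -0.17, of which the first 3 were 2-fold higher but not over their whole rounding range. By name, 2 of 30 genes with a value stayed lower over the rounding range and 0 stayed higher, beside 3.85% and 3.67% of all genes. These were Tlr7, with a highest score of 2.7 and 0.5, and the receptor kinase Jak1, with 7.5 and 2.8.

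Among partners that bind DNA beside IRF4 and IRF8, Batf3, an AP-1 family factor, had no own-strand segment in the control and 10 after IL-4, at a level of 78.0, while the highest score by its name was 1.7 and 1.8. Its relative Batf had 2 segments in the control and 1 after IL-4, with a centred log2 ratio of -1.43 (-1.98 to -0.85). By name Batf went the other way, with a highest score of 0.5 and 0.8 and a centred log2 ratio of 1.06 (0.83 to 1.30). Ets1 had no own-strand segment in the control and 2 after IL-4. Spi1, which encodes the macrophage factor PU.1, differed little, with 33 segments and a level of 119 in the control and 27 segments and 95.4 with IL-4, for a centred log2 ratio of -0.44 (-0.92 to 0.01).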

How the data were processed

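Nascent RNA was measured by GRO-seq in BMDMs, 1 control and 1 IL-4 library, assigned from the treatment label. The authors aligned reads to mm10 with BWA (0.7.10 in the submitters' processing notes, which also list SAMtools 0.1.19 and HOMER 4.2), removed artifact regions, and called and annotated transcripts in each library with HOMER. The only value used is the score per transcript, deposited by the authors with 1 decimal. Whether it was scaled to library size is not stated in the sources used here, so ratios were centred on the median gene. Read counts, and thus depth, were not in these files, and no interval or test was possible with 1 library per group.

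Gene spans, strands and identifiers came from GENCODE M21 on the same build, and promoters from RefSeq. Any overlap of at least 1 base counted. A gene was counted at 2-fold, and the rounding range took every score at plus or minus 0.05. Where own-strand segments are matched between libraries, scores were compared as deposited. Named were all 10 members, Irf2bp1, Spi1, and genes of a 37-gene pathway list that were 2-fold apart over the whole rounding range. Batf3, Batf, Ets1, Irak4, Tlr4, Traf6, Ticam1 and Myd88 were named after their values were seen. Another gene of the naming rule is not reported here. The members and lists were chosen with earlier results of these data known. The steps (Python 3.11.15, NumPy 2.4.6, pandas 2.3.3, matplotlib 3.10.9) were tested on the control library with known folds put into the scores of randomly picked genes. That test left segment positions and lengths unchanged, so it did not cover the difference in segment length between the libraries.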

Additional observations from a re-analysis of the deposited data

How the results depend on the processing

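With 1 library per group and unknown depth, the values are limited by calling and rounding: a control segment below the calling limit is counted as none, and no alternative replaces a replicate. No paired analysis was possible because each group has 1 library.

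By name, 1 member was 2-fold higher. The count was 3 with the sum of score times length, by name and on the own strand, and 2 with the transcript nearest the TSS. The 1 lower member became 0 with the sum of scores, the sum of score times length, the highest own-strand score, the own-strand sum, and 0.1 added to each score. With the transcript nearest the TSS the count stayed at 1, but the member was Irf4 (-2.09), while Irf3 stood at 0. Irf4 ran from -2.09 to 2.39 over the 6 alternatives in which it had a value. The members' median of 0.38 became 0.10 (sum of scores), 0.17 (nearest TSS), 0.59 (own-strand sum), 0 (no centring) and 0.083 (length of at least 150 bp). Irf3 turned from -1.04 to 0.48, 0.42 and 2.59 with the sum of score times length by name, the highest own-strand score and the own-strand sum, settings that draw on other segments. Irf7 was at least 2-fold higher in 10 of 10 alternatives, which share segments and are not independent. Its log2 ratio was exactly 1 with the transcript nearest the TSS, without centring and with a length of at least 150 bp.

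The own-strand median of 0.59 became 0.98 (7 members) with scores of at least 0.3. The planned main value was the highest score by name, with the own-strand sum as an alternative to it. Leading with the own-strand level, and varying it in turn, were choices made after seeing the data. The count of 10 members with more cover became 3 when divided by the library's total covered length. Over all genes, the 716 higher and 765 lower by name became 1208 and 1219 (sum of scores), 1529 and 1500 (sum of score times length), 336 and 386 (score of at least 0.3), and 1648 and 1239 (0.1 added). The lower count alone became 2460 (nearest TSS), 2161 (no centring) and 1634 (length of at least 150 bp). On the own strand, 3 members were higher in each alternative but the one without repeats, which had 2. With scores of at least 0.3 these were Irf7 (2.10), Irf2 (1.14) and Irf9 (1.04, 0.38 otherwise), since Irf3 had no segment left.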

Other observations

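Segments that the deposited annotation classed as intergenic were few near the members. Within 100 kb of their starts they numbered 2 in the control and 4 after IL-4 around Irf1, 0 and 1 around Irf4, 1 and 3 around Irf5, 2 and 1 around Irf8, 1 and 0 around Irf9, 5 and 6 around Irf2bp2 and 2 and 3 around Irf2bpl, beside 3186 and 3496 intergenic segments in the whole libraries. Own-strand ones within 10 kb past the end of Irf1 and Irf2bp2 are counted again below as transcription past the end. The IL-4 segment of Irf5 at 13.2 kb lies inside its GENCODE span and is also in its level. The Irf4 segment lay at -34.8 kb from its start on the opposite strand, was 459 bp long and had a score of 0.1. Those around Irf8 differed in place, strand and name. The 2 control segments lay at -50.9 and -50.01 kb from its start, on the plus strand, and carried the name Cox4i1. The IL-4 segment lay at -21.1 kb on the minus strand and carried the name Irf8.

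Transcription past the annotated end was also seen. Counted were own-strand segments within 10 kb downstream that began past the end of the gene. Irf1 had 551 bp of these in all in the control and 1153 bp after IL-4. Its 1662 bp IL-4 segment, which began inside the gene and ran past the end, is not in this sum. Irf7 had none and 873 bp, Irf2bp2 had 1366 and 2721 bp, Irf2 had 275 and 761 bp, and Irf3 had 235 and 648 bp. Irf8, with 300 and 366 bp, and Irf9, with 321 and 349 bp, were closer between libraries, and Irf4, Irf5 and Irf2bpl had none in either. Opposite-strand segments within 10 kb upstream of the start were called in both libraries for Irf1, Irf2, Irf2bp2, Irf3 (172 and 176 bp) and Irf5 (507 and 97 bp), and after IL-4 only for Irf7 (566 bp) and Irf2bpl (557 bp). The highest at Irf2, with scores of 0.6 and 0.8, carried the name of the neighbouring gene Gm16675 and lay in its intron 1. Those at Irf3 carried the name Gm15545 and were annotated to a 3' UTR. The segment upstream of Irf7 was annotated to exon 15 of 15 of another transcript.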
